A study of Mus musculus with 8 samples.

Results

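Germinal centre B cell genes are a set of 9 genes, named by symbol, that mark or build the germinal centre. They are Bcl6, Lmo2, Mef2b, Basp1, Neil1, Mybl1, Gcsam, Rgs13 and Fas, and each was matched to 1 row of a count table of 43629 Ensembl genes. The germinal centre is the site in the lymphoid follicle where activated B cells divide, mutate their antibody genes and are selected by T cells. Its programme rests on BCL6, a transcriptional repressor that MEF2B activates, and B cells that have not met antigen are not expected to run it in full. RGS13 and GCSAM tune chemokine and receptor signals in these cells, and FAS is a death receptor carried on their surface.

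The genes were read in 8 RNA-seq libraries of ex-vivo follicular B cells from mouse spleen, which by label are not germinal centre cells. The 4 control libraries carried the genotype Rosa26GFPZFP36L1, an allele at the Rosa26 locus that both groups shared. The 4 GFP-ZFP36L1 libraries carried Rosa26GFPZFP36L1 CD23cre/+, in which a Cre recombinase is driven from CD23, a gene of mature B cells. ZFP36L1 shortens the life of mRNAs that carry AU-rich elements in their 3' UTRs. The labels state no animal, age, sex or pairing, so each p measures the spread between these libraries, and Cre and the allele's expression cannot be told apart.

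Totals ran from 38947758 to 51024233 counts per library. Genes of the sorting gate were abundant, with Ptprc (B220) at 2064 ± 43.6 CPM (counts per 1000000, scaled by TMM factors), Fcer2a (CD23) at 1460 ± 69.5 and Cr2 (CD21) at 1256 ± 65.0 in the controls (SD, n = 4). In the GFP-ZFP36L1 libraries, Ptprc had 1782 ± 138.5, Fcer2a 1212 ± 116.5 and Cr2 1327 ± 108.2 CPM. Fcer2a and Cr2 did not pass between the groups (edgeR, adjusted p 0.102 and 0.658). Cd93, although its protein is listed as positive in the gate, had 10.5 ± 2.003 CPM in the controls. Zfp36l1 itself had a lower level in the libraries labelled GFP-ZFP36L1, at 439 ± 28.6 against 547 ± 35.1 CPM (edgeR, adjusted p 0.0348, lost without any 1 library except GFP-ZFP36L1 replicate 1, at log2 fold changes from -0.34 to -0.27). The table gives 1 count per library for the gene, and whether it holds reads of the Rosa26 allele was not tested. Exons of Gm26669 on the opposite strand overlap 55.92% of the exon length of Zfp36l1. The part of that overlap in the Zfp36l1 counts was not tested. Gt(ROSA)26Sor, the transcript of the locus that carries the allele, had 3.91 ± 0.604 CPM in the GFP-ZFP36L1 libraries and 16.9 ± 2.58 CPM in the controls (edgeR, adjusted p 4.14e-05). Its groups did not overlap, and the call was kept under all 16 alternatives. Expression of the GFP-ZFP36L1 protein was not measured here. T cell markers other than Lck, which B cells also express, lay below 0.25 CPM on average in both groups.

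ZFP36 proteins recognise the heptamer UAUUUAU, and the sites are shown because such a protein could contact them. Other AU-rich sequences were not searched. The letters were searched on the sense strand of the longest annotated 3' UTR of each gene in GENCODE mouse release 21 (GRCm38). Of the 9 genes, 2 held the heptamer, Lmo2 and Mybl1. Among tested genes with a 3' UTR, 29.7% of 10961 held at least 1. Capitals mark the heptamer, and each stretch of 29 bases is written 5′ to 3′ on the gene's strand.

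Lmo2 (chr2:103981650-103981678, plus strand): aaccagacaaaUAUUUAUagcgauguuga
Mybl1 (chr1:9669677-9669705, minus strand): ggcaaauuuauUAUUUAUauguuuaagaa
Mybl1 (chr1:9669323-9669351, minus strand): aguguuaaggaUAUUUAUuugugcauagu
Mybl1 (chr1:9669121-9669149, minus strand): uuaaauguagaUAUUUAUauauacagggu
Mybl1 (chr1:9668726-9668754, minus strand): aauauuaucuuUAUUUAUacaaauauuuu
Mybl1 (chr1:9668504-9668532, minus strand): guaguuugaauUAUUUAUaauugacacac
Mybl1 (chr1:9668254-9668282, minus strand): uuuuaaaacucUAUUUAUcuguuaauaga

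The single Lmo2 heptamer begins 567 nt after the stop codon in a 3' UTR of 784 nt. Of 1642 tested genes whose 3' UTR was within 25% of that length, 19.6% held at least 1. The Mybl1 3' UTR, at 2469 nt, held 6, and 9 of 1983 tested genes of like length (0.5%) held as many. The 3' UTRs of Bcl6 (1073 nt), Rgs13 (847 nt), Basp1 (952 nt), Neil1 (456 nt), Fas (448 nt), Mef2b (438 nt) and Gcsam (2726 nt) did not hold these letters. A match describes the sequence and was not tested as a binding site.

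The 9 genes spanned a wide range of levels in control follicular B cells. To compare them, CPM was divided by the length of each gene's annotated exons in kilobases. Lmo2, a LIM-only adaptor that joins DNA-binding factors into one complex, was highest at 113 ± 4.85 CPM per kilobase (SD, n = 4), above 97.0% of tested genes. Neil1, a DNA glycosylase that starts the repair of oxidised bases, had 21.9 ± 0.849 CPM per kilobase. Bcl6 had 18.7 ± 3.74 CPM per kilobase, and the controls of Neil1 and Bcl6 overlapped. Both genes lay in the upper part of the distribution, above 81.2% and 78.0% of tested genes. These 3 genes had at least 1371 counts in every library.

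The other 6 genes were low. Fas had 2.25 ± 0.230 CPM per kilobase in the controls, above 29.9% of tested genes. Rgs13, a GTPase activator that shortens G protein signals, had 0.536 ± 0.162 and Mybl1, the transcription factor A-MYB, 0.481 ± 0.0937 CPM per kilobase, and their controls overlapped. Basp1, a membrane-bound protein that also acts as a transcriptional corepressor, had 0.192 ± 0.0162 CPM per kilobase. Mef2b and the adaptor gene Gcsam were lowest, at 0.0963 ± 0.0407 and 0.0462 ± 0.0347 CPM per kilobase, and their controls overlapped too. Every other pair of neighbours in this order had controls that did not overlap.

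**Figure D1:**
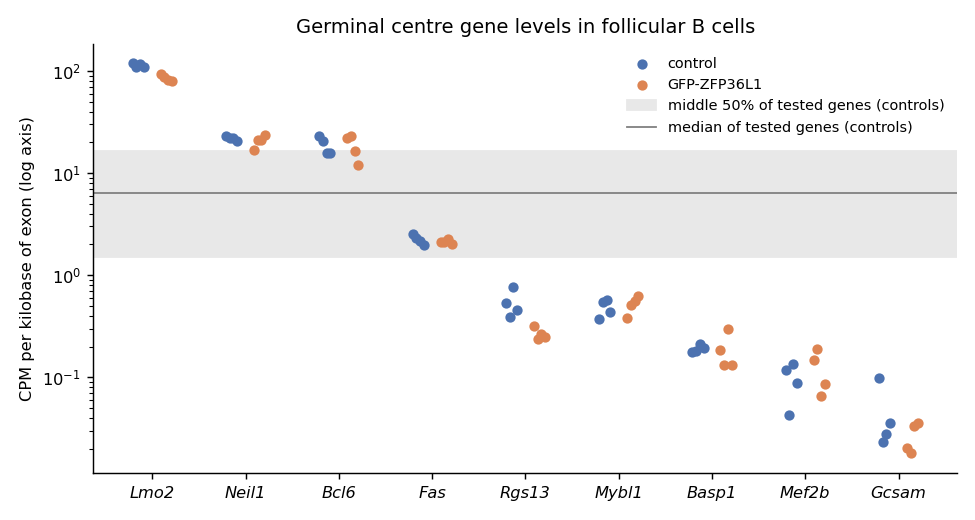
Level of each gene in every library, in CPM per kilobase of annotated exon on a log axis, ordered by the control mean; blue points are controls and orange points GFP-ZFP36L1 libraries. Lmo2, Neil1 and Bcl6 lie above the grey band that holds the middle 50% of tested genes or across its upper edge, Fas lies inside it, and the 5 remaining genes lie below it.

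The comparison of the groups asks whether germinal centre genes in follicular B cells differ between the libraries labelled GFP-ZFP36L1 and the controls. In all, 7 of the 9 genes passed the filter on low counts and were tested by edgeR's quasi-likelihood method. Lmo2 fell, and the other 6 did not pass an adjusted p of 0.05. Called genes made up 3.12% of the 13035 tested, and those called lower 1.30% and higher 1.83%. An unadjusted p under 0.05 was found for 17.3% of them. The median log2 fold change of the 7 was -0.08 and that of all tested genes -0.01. A negative fold change was seen in 6 of the 7 and in 52.1% of all tested genes. The 7 are not the whole set, because Mef2b and Gcsam had too few reads.

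Lmo2 was lower in every GFP-ZFP36L1 library. Control replicates 1 to 4 had 255.8, 234.1, 252.7 and 238.9 CPM, and GFP-ZFP36L1 replicates 1 to 4 had 203.2, 187.0, 175.0 and 174.1 CPM. The groups did not overlap, and the highest GFP-ZFP36L1 library lay below the lowest control. The log2 fold change was -0.41 ± 0.06 (SE; 95% interval -0.54 to -0.27), so that controls were 1.33 times higher. The adjusted p was 0.0081 in edgeR's test, and 11.2% of all tested genes likewise had groups without overlap. Lmo2 (ENSMUSG00000032698) lies at chr2:103957986-103981878 on the plus strand, and no annotated exon of another gene overlaps its exons. In whole-population RNA, fewer cells with a transcript and less transcript per cell cannot be told apart.

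The Lmo2 call was kept under all 16 alternatives, with log2 fold changes from -0.45 to -0.38. Its adjusted p was highest, 0.0433, without control replicate 3. The authors' deposited table lists Lmo2 at a log2 fold change of -0.38 with an adjusted p of 3.59e-07, and 6.63% of the genes with an adjusted p in that table passed 0.05.

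Rgs13 (ENSMUSG00000051079, chr1:144138654-144177372, minus strand) had the largest fold change of the tested genes in the set, but did not pass the main test. Control replicates 1 to 4 had 0.883, 0.644, 1.26 and 0.762 CPM, from 37, 32, 53 and 31 counts. GFP-ZFP36L1 replicates 1 to 4 had 0.530, 0.390, 0.438 and 0.414 CPM, from 23, 19, 19 and 17 counts. The groups did not overlap, as was so for 11.2% of all tested genes, and control replicate 3 was the highest library. The log2 fold change was -0.99 ± 0.25 (SE; 95% interval -1.54 to -0.44), with an adjusted p of 0.0571 in edgeR's test.

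That value lies close to the threshold, and the call for Rgs13 changed with the method. Rgs13 was called lower by DESeq2 (adjusted p 0.0288; 6.87% of the 13035 genes called), by limma voom with quality weights (0.0393; 8.08% of them called) and by edgeR without a filter (0.0419). It was also called without GFP-ZFP36L1 replicate 1, at 0.0415. Over all genes, edgeR called 509 of 21447 without a filter and 948 of 13183 without that replicate. Without control replicate 3 the log2 fold change was -0.78 and the adjusted p 0.173. The authors' deposited table lists Rgs13 at a log2 fold change of -0.36 ± 0.112 (SE) with an adjusted p of 0.0263. DESeq2 as run here gave -0.997 ± 0.316 (SE). The authors' fold change and its SE were both smaller, so these sizes should not be compared directly. The cause of that difference was not tested. The fold changes computed here kept their direction under the 15 alternatives whose filter Rgs13 passed, from -1.13 to -0.78.

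**Figure D2:**
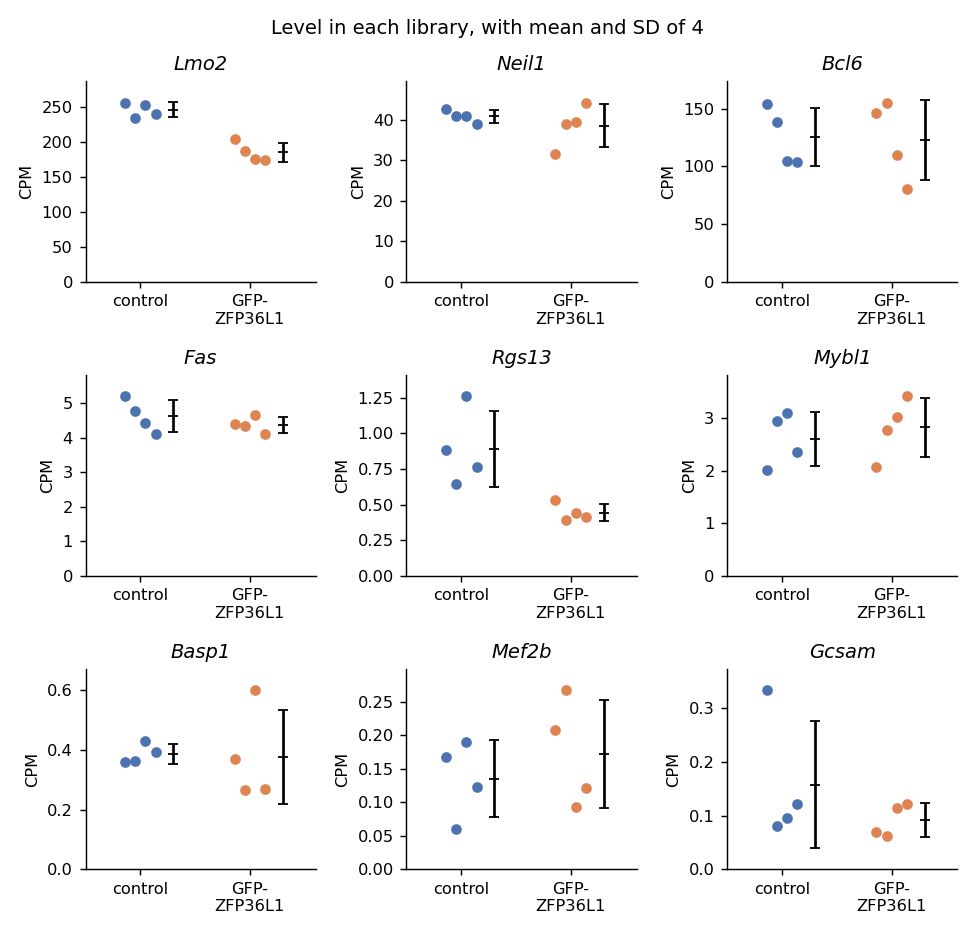
CPM of each gene in every library on axes that start at 0, with the mean and SD of 4 libraries in black beside the points. The 2 groups are separate for Lmo2 and Rgs13 and overlap for the other 7 genes.

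Other germinal centre markers gave a mixed picture beside Rgs13. The log2 fold changes of Nuggc, a nuclear GTPase of germinal centre B cells, and Mki67, a marker of dividing cells, were -0.65 ± 0.29 and -0.49 ± 0.24 (SE). That of S1pr2, the receptor that holds cells in the germinal centre, was 0.35 ± 0.20 (SE), and none of these 3 passed. In this list of 7 markers, 1 rose and 1 fell, beside 1.83% of all tested genes called higher and 1.30% lower. Plxnb2 rose, at 0.55 ± 0.12 (SE) on the same scale (edgeR, adjusted p 0.032), and Stap1 fell. The summed level of the 7 markers S1pr2, Plxnb2, Nuggc, Rassf6, Mki67, Gcnt3 and Stap1 ran from 231.9 to 256.0 CPM in the controls and from 200.4 to 227.3 CPM in the GFP-ZFP36L1 libraries. Most of that sum was Stap1, a signalling adaptor at 219 ± 9.42 CPM in the controls, which fell to 184 ± 6.50 CPM (edgeR, adjusted p 0.0299). That call was lost without control replicate 2, 3 or 4 or GFP-ZFP36L1 replicate 2 or 3, at up to 0.118, while the log2 fold change stayed between -0.27 and -0.22. None of the 7 was at 0 in every library. Summed cycling markers ran from 13.3 to 14.5 CPM in the controls and from 12.8 to 15.5 CPM in the other group.

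Some markers of other cell types were called as well, beside 1.83% of all tested genes called higher and 1.30% lower. Of single tested genes, 11.2% had groups without overlap. The summed level of 9 mature B cell markers ran from 16500 to 17670 CPM in the controls and from 14400 to 16440 CPM in the GFP-ZFP36L1 libraries, without overlap, and 1 of the 9 fell. This was Ighd, the heavy chain of IgD, at 2522 ± 226 against 3173 ± 65.9 CPM (edgeR, adjusted p 0.0493). The summed level of 6 follicular dendritic and stromal markers ran from 7.80 to 9.24 CPM in the controls and from 10.8 to 11.55 CPM in the other group, again without overlap. Most of that sum was Mfge8, the 1 gene called of the 6, which encodes a bridge for the uptake of dying cells. Mfge8 rose to 10.2 ± 0.345 from 7.58 ± 0.732 CPM (edgeR, adjusted p 0.0289). The log2 fold changes of Clu and Vcam1 were -0.05 ± 0.27 and -0.76 ± 0.30 (SE), and neither passed. Pdpn and Ccl19 were at 0 in every library. Among 8 myeloid markers, whose summed levels overlapped between the groups, Itgam alone was called. It rose to 3.405 ± 0.725 from 1.96 ± 0.335 CPM (edgeR, adjusted p 0.0395). Exons of Gm49368 on the same strand overlap 68.7% of the exon length of Itgam. Adgre1 of that list had a log2 fold change of -0.89 ± 0.25 (SE) and did not pass. The calls of Ighd, Mfge8 and Itgam were lost with some single library left out, at adjusted p up to 0.152 in edgeR's test. The part of these shifts, or of a rare germinal centre population, in the Lmo2, Stap1 and Rgs13 values was not tested.

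Bcl6 did not differ between the groups beyond the spread of its libraries. The controls had 154.1, 138.2, 104.3 and 104.1 CPM in replicates 1 to 4, and the GFP-ZFP36L1 libraries 146.5, 155.4, 109.9 and 80.35 CPM. The groups overlapped over most of their range. The log2 fold change was -0.03 ± 0.23 (SE), with a 95% interval of -0.54 to 0.49 and an adjusted p of 0.974 in edgeR's test. That interval is wide for a gene with 3298 to 7566 counts per library, and the libraries of each group differed among themselves. Bcl6 (ENSMUSG00000022508) lies at chr16:23965052-23988852 on the minus strand.

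The spread of Bcl6 followed the numbers 1 to 8 in the sample titles, which alternate between the groups and whose meaning the labels do not state. The libraries titled 1 to 4 held 138.2 to 155.4 CPM, and those titled 5 to 8 held 80.35 to 109.9 CPM. In a fit with group and title number, Bcl6 fell by 0.129 ± 0.024 (SE) on the log2 scale per number, with an adjusted p of 0.0103 in edgeR's test. The same term was called lower for 11.7% of all tested genes and higher for 9.04%, so a fall with the title number was common. Total counts moved with it, from 43285538 to 51024233 in the libraries titled 1 to 4 and from 38947758 to 42742853 in those titled 5 to 8. The part of depth in the Bcl6 values, which are scaled for it, was not tested.

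With the title number in the fit, the group difference of Bcl6 was 0.09 ± 0.11 (SE) on the log2 scale, with an adjusted p of 0.696 in edgeR's test. Its SE was below that of the fit without the term. Lmo2 kept its difference in that fit, at -0.39 ± 0.05 (SE), and Rgs13 passed at -0.99 ± 0.26 (edgeR, adjusted p 0.0291), where 7.90% of tested genes were called for group. Among the 7 tested members, Bcl6 alone was called for the title number. The adjusted p of Lmo2 for that term was 0.123, of Mybl1 0.131, of Fas 0.316, of Neil1 0.318, of Basp1 0.855 and of Rgs13 0.961.

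**Figure D3:**
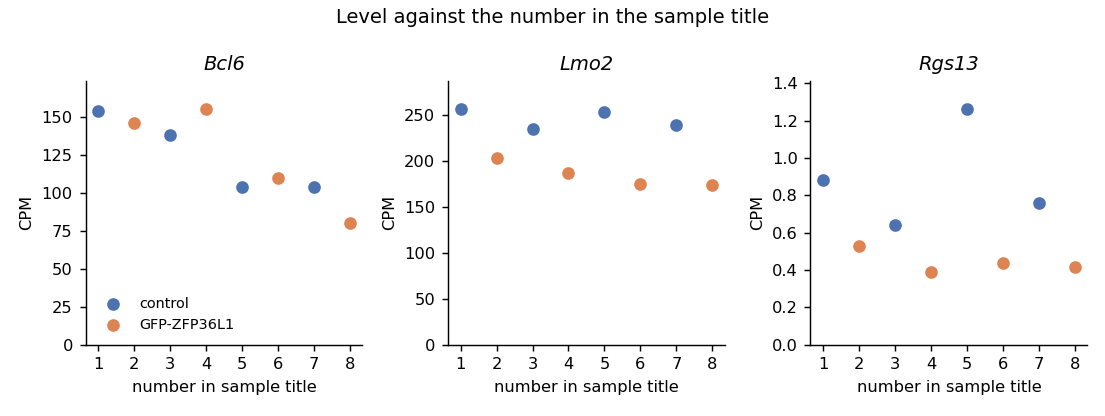
CPM of Bcl6, Lmo2 and Rgs13 against the number in the sample title, with axes that start at 0, controls in blue and GFP-ZFP36L1 libraries in orange. Bcl6 is lower in all 4 libraries titled 5 to 8 whatever the group, while for Lmo2 and Rgs13 every orange point lies below every blue one.

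Neil1 (ENSMUSG00000032298) lies at chr9:57142800-57148305 on the minus strand. In replicates 1 to 4, it had 42.78, 40.93, 40.89 and 38.89 CPM in the controls and 31.57, 39.02, 39.36 and 44.27 CPM in the GFP-ZFP36L1 libraries. The GFP-ZFP36L1 libraries surrounded the controls on both sides. Its log2 fold change was -0.09 ± 0.09 (SE; 95% interval -0.27 to 0.10), and it did not pass, with an adjusted p of 0.678 in edgeR's test.

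Fas (ENSMUSG00000024778) lies at chr19:34290666-34327772 on the plus strand. The controls of Fas had 5.20, 4.79, 4.43 and 4.10 CPM, and its GFP-ZFP36L1 libraries 4.40, 4.33, 4.66 and 4.12 CPM, in the same order. All GFP-ZFP36L1 libraries lay within the range of the controls. The log2 fold change of this death receptor gene was -0.08 ± 0.11 (SE; 95% interval -0.32 to 0.15).

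Mybl1 (ENSMUSG00000025912, chr1:9667415-9700209, minus strand) had the sole positive fold change of the 7 tested genes. Its controls had 2.005, 2.94, 3.09 and 2.36 CPM and its GFP-ZFP36L1 libraries 2.07, 2.77, 3.02 and 3.41 CPM, in replicates 1 to 4. The groups overlapped, and the log2 fold change was 0.11 ± 0.18 (SE; 95% interval -0.28 to 0.51), with an adjusted p of 0.802 in edgeR's test.

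Basp1 (ENSMUSG00000045763, chr15:25363277-25413764, minus strand) was read at 11 to 26 counts per library, which limits what can be seen. Its log2 fold change was -0.04 ± 0.30 (SE), with a 95% interval of -0.69 to 0.61, so a change of either sign by 1.5 times would not be detectable at this depth. Mef2b (ENSMUSG00000079033) lies at chr8:70139711-70167488 and Gcsam (ENSMUSG00000022659) at chr16:45610380-45622867, both on the plus strand. In replicates 1 to 4, Mef2b had 7, 3, 8 and 5 counts in the controls and 9, 13, 4 and 5 counts in the GFP-ZFP36L1 libraries. The groups overlapped, and 62 nt of its exons, 4.42% of them, are shared with Borcs8 on the same strand. Gcsam had 14, 4, 4 and 5 counts in the controls and 3, 3, 5 and 5 in the GFP-ZFP36L1 libraries. Its highest library was control replicate 1, and the rest lay within a few reads of each other. Without the filter on low counts, the log2 fold changes of Mef2b and Gcsam were 0.38 ± 0.49 and -0.76 ± 0.56 (SE), with adjusted p of 0.766 and 0.625 in edgeR's test.

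**Figure D4:**
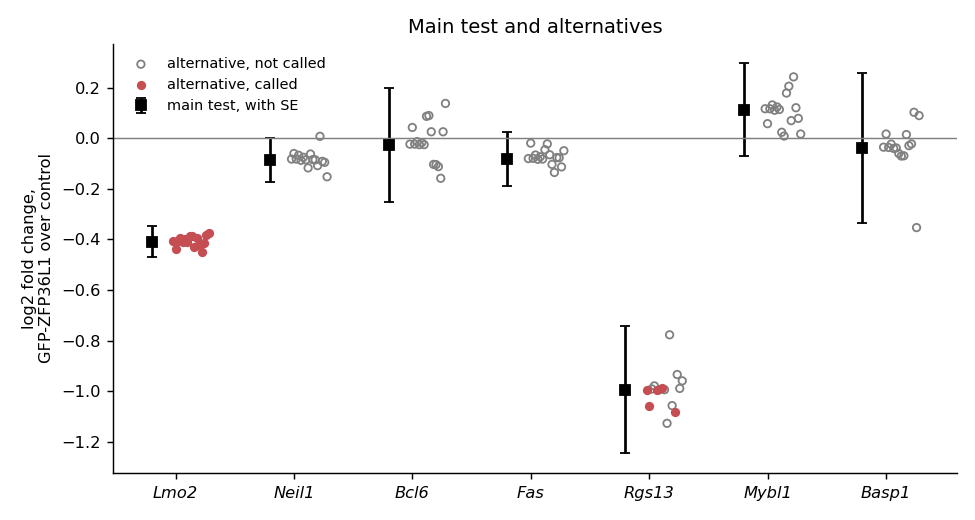
log2 fold change of GFP-ZFP36L1 over control for the 7 tested genes, with the main estimate and its SE in black and each alternative as a point, red where it was called. Lmo2 is red throughout, Rgs13 is red in 5 of 15 alternatives, and no alternative called any of the other 5 genes.

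Across the 8 libraries, the log2 CPM of Lmo2 and Rgs13 had a Pearson r of 0.917, and 0.612 once each group's mean was removed. Both genes were lower in value in the same group, and all points share their library's scaling, so r is given as a description. The genes whose log2 CPM was most like that of Lmo2 were Pltp (r = 0.992), Actl6a (r = 0.988) and Grk6 (r = 0.982), each over 8 libraries. They were sought among 8903 others with a mean of at least 5 CPM, leaving out predicted, RIKEN, pseudogene and immunoglobulin segment genes. Pltp, a phospholipid transfer protein gene, had 15.0 ± 1.92 against 25.6 ± 1.56 CPM. Actl6a, a subunit of chromatin remodelling complexes, had 58.4 ± 1.70 against 63.1 ± 0.813 CPM, and Grk6, a kinase of G protein-coupled receptors, 531 ± 25.4 against 622 ± 3.70 CPM. Of these 3, Pltp alone passed the test between groups.

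The partners of LMO2 did not pass beside it. Ldb1, the scaffold that LMO2 binds, had 278 ± 7.94 CPM in the GFP-ZFP36L1 libraries and 306 ± 11.4 CPM in the controls, a log2 fold change of -0.14 ± 0.05 (SE). Lyl1, a basic helix-loop-helix partner, had -0.13 ± 0.06 (SE) on the same scale. In the list of relatives and partners of LMO2, MEF2B, MYBL1 and BASP1, 0 of 10 tested genes passed edgeR's test, 0 were called by DESeq2 and 1 by limma voom, and 3 had an unadjusted p under 0.05 in edgeR's test, beside 17.3% of all tested genes. Of all tested genes, edgeR called 3.12%, DESeq2 6.87% and limma voom 8.08%. Lmo1, Lmo3, Tal1, Gata2, Gap43 and Wt1 were too low to test. Myb, the relative of Mybl1, had 5.83 ± 1.56 against 3.92 ± 0.720 CPM and a log2 fold change of 0.58 ± 0.19 (SE), with an adjusted p of 0.135 in edgeR's test. Myb also rose with the title number, by 0.116 ± 0.026 (SE) on the log2 scale per number. With that term in the fit, its group difference was 0.45 ± 0.12 (SE) and passed (edgeR, adjusted p 0.0318). It also passed with limma voom fitted without that term (adjusted p 0.0409).

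Of 24 regulators of the germinal centre programme, 2 fell by edgeR's test, 22 did not pass, and the median log2 fold change was -0.06. DESeq2 and limma voom called 4 each, the fit with the title number 3, and 7 had an unadjusted p under 0.05. The shares of all tested genes were 1.30% for those called lower by edgeR, 6.87% for DESeq2, 8.08% for limma voom, 7.90% with the title number and 17.3% for the unadjusted p. Pax5, the factor that holds B cell identity, had 210 ± 6.83 against 245 ± 8.06 CPM, and Irf8, a factor that acts with PU.1, had 418 ± 31.8 against 509 ± 22.6 CPM. edgeR gave them adjusted p of 0.0405 and 0.0456. Each call was lost without control replicate 2, 3 or 4 or GFP-ZFP36L1 replicate 2 or 3, and that of Irf8 also without control replicate 1 or GFP-ZFP36L1 replicate 4. With 1 library left out, the log2 fold changes stayed between -0.24 and -0.20 for Pax5 and between -0.33 and -0.25 for Irf8. The calls over all genes fell as well, from 407 to between 79 and 240, except without GFP-ZFP36L1 replicate 1. Pax5 lost its call with upper-quartile factors and without a filter as well. Antisense transcripts overlap 7.2% and 1.4% of the exon length of Pax5, and whether reads were counted by strand is not given by any label used here. Pou2f2, encoding OCT2, had a log2 fold change of -0.25 ± 0.07 (SE) and an adjusted p of 0.0777 in edgeR's test, and passed with the title number in the fit (0.00827), DESeq2 (0.0153) and limma voom (0.0265).

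Of 18 genes for BCL6 corepressors and turnover, 1 fell and 17 did not pass, beside 1.30% of all tested genes called lower. DESeq2 and limma voom called 2 each, the fit with the title number 3, and 2 had an unadjusted p under 0.05. Over all tested genes these shares were 6.87%, 8.08%, 7.90% and 17.3%. Hdac1, a histone deacetylase, had 152 ± 9.22 against 181 ± 5.79 CPM (edgeR, adjusted p 0.0348), and lost the call without any 1 library except GFP-ZFP36L1 replicate 1, at log2 fold changes from -0.28 to -0.22. Mta3, a subunit of the NuRD complex, and Hdac7 had log2 fold changes of -0.20 ± 0.06 and -0.15 ± 0.07 (SE). With the title number in the fit both passed in edgeR's test, at adjusted p of 0.0345 and 0.0164. DESeq2 and limma voom called Mta3 but not Hdac7. The median of this list was -0.01 and 9 of its 18 genes had a negative value.

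Genes that BCL6 is known to repress did not pass edgeR's main test. Of 19 tested, 0 were called by edgeR, 2 by DESeq2 and 1 by limma voom, while 8 had an unadjusted p under 0.05 in edgeR's test, beside 17.3% of all tested genes, and Ccl3 was too low to test. The shares of all tested genes called were 3.12% by edgeR, 6.87% by DESeq2 and 8.08% by limma voom. In edgeR's fit with the title number, 1 of the 19 was called for group, beside 7.90% of all tested genes. Prdm1, which encodes the plasma cell regulator BLIMP1, had 2.25 ± 0.461 against 1.49 ± 0.265 CPM. Id2, an inhibitor of E proteins, had 3.84 ± 0.865 against 2.65 ± 0.197 CPM. The groups did not overlap for Prdm1 or for Id2, as was so for 11.2% of all tested genes. Cdkn1a, the cell cycle inhibitor p21, had 1.38 ± 0.462 against 2.24 ± 0.261 CPM. The adjusted p of these 3 ran from 0.102 to 0.12 in edgeR's test. DESeq2 called Id2 (adjusted p 0.0362) and Cdkn1a (0.0439), but not Prdm1 (0.0591). Neither limma voom nor the fit with the title number called any of these 3 between the groups. For the title number, along which Bcl6 fell, 4 of the 19 were called higher and 3 lower, beside the 9.04% and 11.7% of all tested genes. The title number coefficients of Prdm1, Id2 and Cdkn1a were 0.05 ± 0.04, 0.04 ± 0.03 and -0.05 ± 0.05 (SE) on the log2 scale per number.

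In the list of positioning and G protein signalling genes, which holds the relatives of Rgs13, 1 of 15 tested genes rose and 14 did not pass, beside 1.83% of all tested genes called higher. DESeq2 called 1, limma voom 2 and the fit with the title number 3, and 4 had an unadjusted p under 0.05. The shares of all tested genes were 6.87%, 8.08%, 7.90% and 17.3%, in that order. Plxnb2, a plexin that guides B cells at the germinal centre, had 23.4 ± 4.42 against 16.0 ± 1.06 CPM (edgeR, adjusted p 0.032). It lost the call without any 1 control or without GFP-ZFP36L1 replicate 3, and it rose with the title number too, by 0.066 ± 0.016 (SE) on the log2 scale per number. With 1 library left out, its log2 fold change stayed between 0.42 and 0.62. Rgs18 had a log2 fold change of 0.30 ± 0.10 (SE), and was called by limma voom (0.0142) and with the title number in the fit (edgeR, adjusted p 0.0108). Ccr7, a chemokine receptor of naive B cells, had -0.32 ± 0.11 (SE). Rgs1 and Rgs16 were too low to test.

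Of 20 genes tested for the repair of damaged or mismatched bases, the setting of Neil1, 0 passed edgeR's test, 0 were called by DESeq2 and 1 by limma voom, and 2 had an unadjusted p under 0.05, beside 17.3% of all tested genes. Of 12 tested for FAS signalling, 0 passed with edgeR, DESeq2 or limma voom, and 1 had an unadjusted p under 0.05 in edgeR's test. Over all tested genes, edgeR called 3.12%, DESeq2 6.87% and limma voom 8.08%. Neil2 and Neil3 were too low to test in the first list, and Fasl, Faim2 and Tnfrsf1a in the second. Exo1, an exonuclease of mismatch repair, had 3.97 ± 0.537 against 3.01 ± 0.240 CPM, and its groups overlapped. Rpa1 and Tdg had log2 fold changes of -0.22 ± 0.09 and -0.13 ± 0.06 (SE). Tnfrsf1b, a TNF receptor, Cd40, the receptor for T cell help, and Ripk1, a kinase of death receptor complexes, had -0.15 ± 0.06, -0.10 ± 0.05 and 0.11 ± 0.06 (SE).

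**Figure D5:**
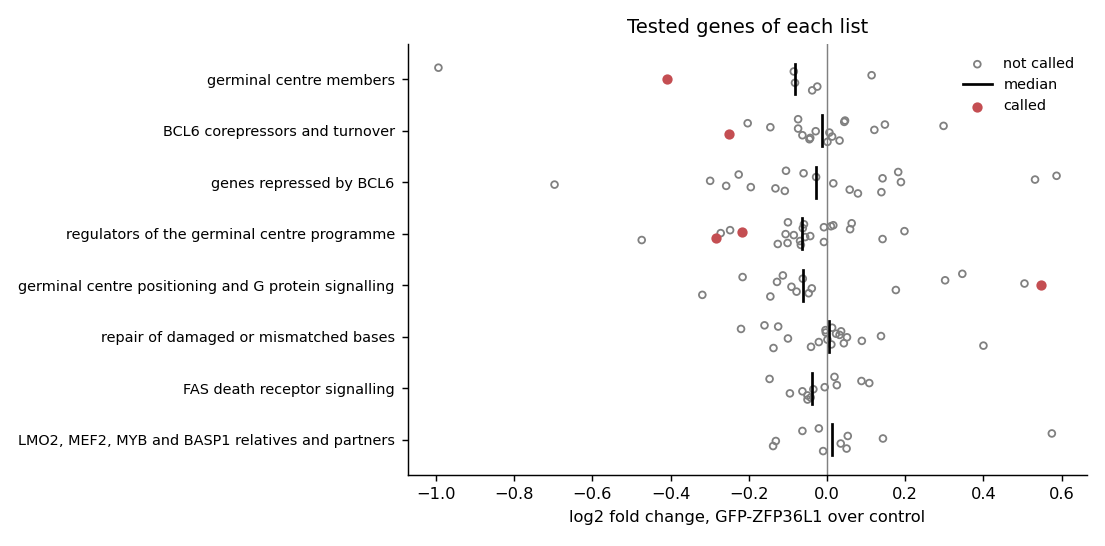
log2 fold change of GFP-ZFP36L1 over control for the tested genes of the 9-gene set and of 7 related lists, 1 point per gene, red where called and with the list's median as a bar. The medians of all 8 rows lie between -0.08 and 0.01, and the called genes are Lmo2, Hdac1, Pax5, Irf8 and Plxnb2.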

How the data were processed

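The authors deposited raw counts per Ensembl gene, and these whole-number counts were used for every test. The submitters' processing notes name GRCm38 as the build and, with no order or settings, DESeq2 1.10.1, HTSeq, TopHat2 2.0.12 and Trim Galore. The authors also deposited normalized values, a signal equal to the count over 1 constant per library, used only as a check. Per the file headers, the authors' comparison table holds their mean signal, log2 fold change, signed fold, test statistic (a score) and p-value per gene, as DESeq2 writes them. The mean signal in the authors' normalized table was 0.901 to 0.905 of that in their comparison table.

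Tests used edgeR 4.0.16 in R 4.3.3: filterByExpr (minimum count 10), TMM factors, the robust quasi-likelihood test of group over 13035 genes, Benjamini-Hochberg adjustment and a threshold of 0.05. Scripts were tested on simulated data with 200 changed genes. Log2 CPM used a prior count of 2. Alternatives used DESeq2 1.42.0, limma 3.58.1 and edgeR with other factors, filters, a title number term or 1 library left out. Symbols matched 42462 of 43629 identifiers, and 0 count columns were unmapped. All 9 members were named, with the called genes of each list or, under 3 calls, the 3 smallest p. Markers of the germinal centre and of other cell types were named from their lists after their values were seen. The members and lists were chosen with earlier results of these data known. Some genes of the lists are not reported here.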

Additional observations from a re-analysis of the deposited data

Results flagged for a closer look

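Among 82 groups of 4 libraries checked for a library far from the rest, where chance alone gives about 1 in 20, the following stood out. Gcsam had 0.334 CPM in control replicate 1, where the next highest control had 0.123 CPM, and both values rest on 14 reads or fewer. Zfp36l1 had 599 CPM in control replicate 1, and the next highest control had 535 CPM.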

How the results depend on the processing

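The number of genes called was 407, against 895 with DESeq2, 1053 with limma voom and 1030 with a title number term, and 79 to 948 with 1 library left out. The share of called genes that were higher, 58.5%, ranged over all alternatives from 50.8% with the title number term to 67.5% without GFP-ZFP36L1 replicate 3. Of the 9 genes, 1 was called, and 2 with DESeq2, limma voom, no filter or the title number term. With 1 library left out 1 to 2 were called. Log2 fold changes near 0 changed sign. Bcl6 had 0.043 with limma voom, 0.087 with the title number term, and -0.158 to 0.138 with 1 library left out. Basp1 had 0.017 with limma voom and -0.353 to 0.103 with 1 library left out. Neil1 had -0.152 to 0.008 with 1 library left out, the positive value being that without GFP-ZFP36L1 replicate 1. The cause of these changes was not tested. Lmo2, Rgs13, Fas and Mybl1 kept their direction in each alternative that gave them a value. With a minimum of 1 CPM in 4 libraries, Basp1 and Rgs13 were not tested. Depth limits Mef2b, Gcsam and Basp1 most. No paired analysis was possible because the labels give the libraries no numbers shared between the groups.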
